A study of Mus musculus with 6 samples.

Results

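The laminin chain genes *Lama3*, *Lama4*, *Lama5*, *Lamb2*, *Lamb3* and *Lamc1*, the nidogen genes *Nid1* and *Nid2* and the perlecan gene *Hspg2* were followed through TGFβ1 treatment and withdrawal in EpH4 cells, a mouse mammary epithelial cell line. The 9 genes were chosen by name. Of these, 8 had a row among the 17428 genes of the deposited table, and *Nid1* was not analysed here. RNA-seq was available for 6 libraries, 2 replicates of each stage. E cells were grown in the normal medium of the line, with serum, antibiotics and insulin and without added TGFβ1. M cells were the same line after 7 days with TGFβ1, and RE cells were M cells returned to the normal medium for another 4 days. All stages come from 1 cell line, and each library is RNA of a whole culture.

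Laminins are secreted proteins made of 1 alpha, 1 beta and 1 gamma chain each, which assemble into a sheet at the basal side of epithelial cells. The alpha chain carries the globular end that integrins and dystroglycan bind. In epithelia the alpha chain of *Lama3* joins the beta chain of *Lamb3* in the laminin under hemidesmosomes, whereas the alpha chain of *Lama5* joins the beta chain of *Lamb1* or *Lamb2* and the gamma chain of *Lamc1*. The chain of *Lama4* is typical of vessels and mesenchyme. Nidogens tie the gamma chain of *Lamc1* to collagen IV, and perlecan is a large heparan sulfate proteoglycan bound into the same network.

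The starts of 3 of the genes are shown because these genes differed in their course, *Lamb3* and *Hspg2* having their highest coverage in the M cells and *Lama5* its lowest. RefSeq promoter windows (GRCm38.p6) were matched for 5 of the 9 genes, and the 250 bases before the annotated start are printed here on the strand of the gene. Capitals mark matches, on either strand, to the AP-1 motif TGANTCA, the Smad motif CAGACA, the E-box CACCTG and the Sp1 motif GGGCGG, the only motifs searched.
Lamb3, chr1:193301744-193301993, plus strand: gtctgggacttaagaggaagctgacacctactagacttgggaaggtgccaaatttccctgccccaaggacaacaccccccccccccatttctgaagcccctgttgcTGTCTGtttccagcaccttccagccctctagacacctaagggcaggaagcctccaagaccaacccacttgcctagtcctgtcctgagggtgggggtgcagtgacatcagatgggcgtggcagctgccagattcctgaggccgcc
Hspg2, chr4:137468553-137468802, plus strand: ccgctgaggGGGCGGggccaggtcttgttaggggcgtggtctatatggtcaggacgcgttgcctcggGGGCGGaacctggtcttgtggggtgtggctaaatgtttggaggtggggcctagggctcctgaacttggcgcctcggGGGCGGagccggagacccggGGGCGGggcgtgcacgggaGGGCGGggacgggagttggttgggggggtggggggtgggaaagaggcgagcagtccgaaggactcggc
Lama5, chr2:180225860-180226109, minus strand: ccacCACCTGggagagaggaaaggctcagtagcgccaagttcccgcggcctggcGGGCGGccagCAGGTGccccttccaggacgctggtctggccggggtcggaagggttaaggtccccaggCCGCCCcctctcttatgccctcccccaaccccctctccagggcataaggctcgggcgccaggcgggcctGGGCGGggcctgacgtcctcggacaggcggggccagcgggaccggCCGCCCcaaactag
The *Lamb3* window held 1 Smad match, at position −144 from the start. A second annotated *Lamb3* start lies downstream, and its window (chr1:193301993-193302242, not printed) held no Smad match and 1 E-box match, at −6. The *Hspg2* window held 5 Sp1 matches. The *Lama5* window held 4 Sp1 matches and 2 E-box matches, the latter at −246 and −186. Of the matched windows not printed, that of *Lamb2*, a gene with its lowest coverage in the M cells, also held 1 Smad match, at −101. That of *Nid1* held 1 Sp1 match. Among all 32851 windows of this length, 6.7% held the AP-1 motif, 17.1% the Smad motif, 17.2% the E-box and 32.7% the Sp1 motif, and a match describes letters only.

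The deposited values behaved as sequenced bases summed per gene (coverage), and the libraries held 35782513 to 47928557 reads' worth of 50 bases. Levels are given as TMM-scaled ppm, the share of a gene in all bases of its library. Differences were tested by limma on log2(ppm + 0.1) over 13893 genes, and a gene was called where the log2 fold change (log2FC) passed 1 in either direction with a Benjamini-Hochberg adjusted p below 0.01. Every adjusted p in the text is of this limma fit over all genes tested, unless another setting is named. The E libraries stood apart from each other. Between the replicates of a stage, log2 levels differed with an SD over genes of 0.558 in E, 0.318 in M and 0.309 in RE. The second E library differed from the first by a median log2 of −0.28 over the lowest quartile of transcript length and of 0.41 over the highest. All 6 of the well covered members were higher in the second E library. Of the mammary epithelial markers all 8 were found, and their summed level was 1864 to 2316 ppm in the E, 2017 to 2157 in the M and 1225 to 1286 in the RE libraries, although *Krt5* was at most at 0.476 ppm. Within this sum 4 of 8 markers were called in E vs. M, beside 16.8% of all genes tested. Single markers moved apart, *Tacstd1* (*Epcam*) averaging 314 ppm in E and 130 in M, *Cldn3* 128 and 49.8, *Cldn7* 125 and 33.5 and *Krt14* 270 and 712. Of 7 fibroblast markers 6 were found, with summed levels of 136 to 167 ppm in the E, 997 to 1134 in the M and 1065 to 1246 in the RE libraries. The largest parts were *Col1a1*, averaging 32.3, 497 and 235 ppm in E, M and RE, and *Pdgfrb*, averaging 80.4, 434 and 746. *Dcn* went the other way in M, averaging 0.400, 0.0034 and 2.75 ppm. The 5 endothelial markers summed to 0.373 to 0.605 ppm in the E, 2.70 to 2.82 in the M and 0.557 to 0.763 in the RE libraries, with *Kdr* at or under the floor of 3 reads' worth in all. The higher sum in M came from *Cdh5*, at 0 in both E libraries and at 2.32 and 2.09 ppm in the M libraries, while *Tek* averaged 0.223 ppm in E and 0.133 in M. The 5 leukocyte markers summed to 5.41 to 9.52 ppm in the E, 7.11 to 7.42 in the M and 5.98 to 6.61 in the RE libraries, with *Ptprc* and *Cd3e* at the floor in all. Most of this was *Cd68*, averaging 7.23, 6.99 and 5.55 ppm in E, M and RE. The part of the fibroblast and endothelial markers in the values of the laminins was not tested.

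In E vs. M, 2 of the 8 members were called, *Lama3* and *Lamb3*, both higher in the M cells. Over all genes tested 16.8% were called, 8.41% higher and 8.35% lower, and 2 of 8 genes is too few to set the members apart from that background. The median log2 fold change of the members was 0.75, with a range of −1.20 to 2.25, beside a median of −0.0026 over all genes tested. Scaling by library totals moved the latter median to −0.29. The median of the members includes the fitted value of *Nid2* (−0.36), which depends on the pseudocount and is not given as a test. All 8 members passed the filter on low values, but *Nid2* only through its RE libraries and *Lama4* through 1 M and 1 RE library.

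**Figure D1:**
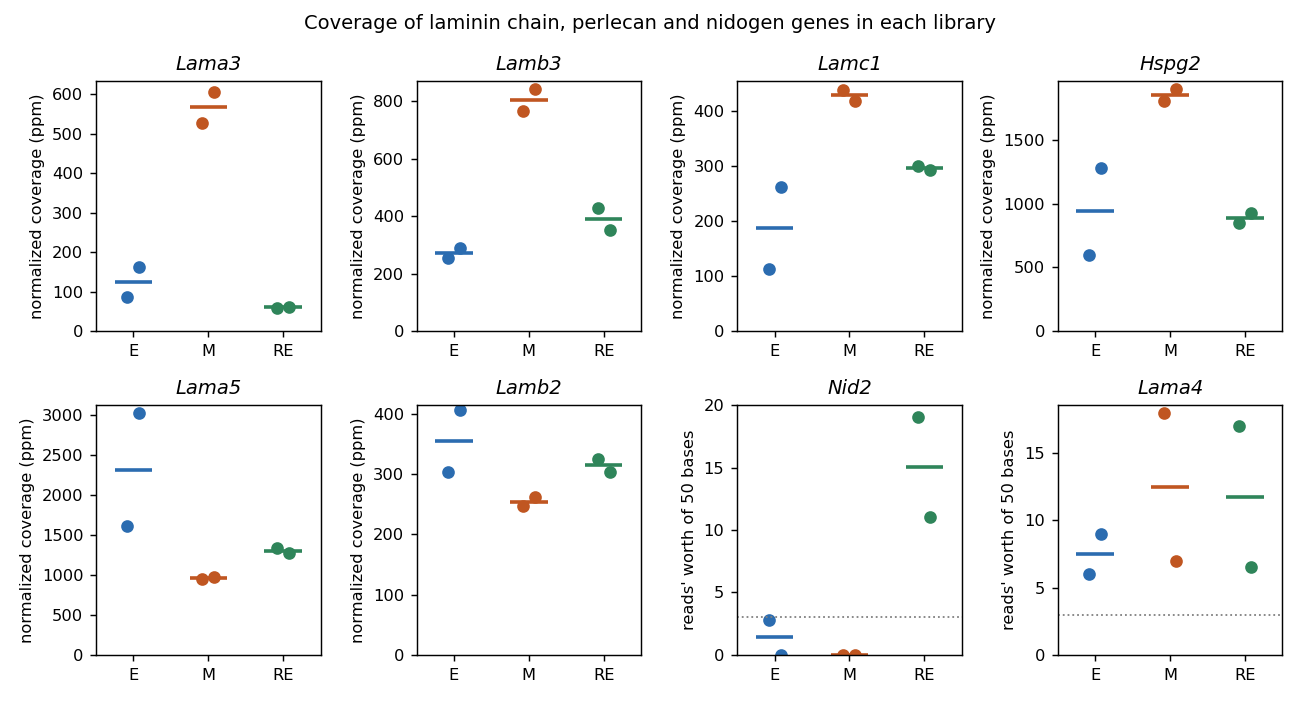
Coverage in each of the 6 libraries (points) with the group means (bars), in ppm for the well covered members and in reads' worth of 50 bases for *Nid2* and *Lama4*. *Lama3*, *Lamb3*, *Lamc1* and *Hspg2* were highest in both M libraries and *Lama5* was lowest there, and the E libraries differed 1.86-fold to 2.32-fold for *Lama3*, *Lama5*, *Hspg2* and *Lamc1*.

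*Lama3*, the alpha chain of the hemidesmosomal laminin, had the largest changes of the 6 well covered members in E vs. M and M vs. RE. Its level was 86.8 and 162 ppm in the E libraries, 527 and 606 in the M libraries and 59.4 and 61.1 in the RE libraries. The groups did not overlap, with M highest and RE lowest, and the E pair differed 1.86-fold. It rose 4.56-fold from E to M (log2FC 2.25 ± 0.27 SE, adjusted p = 0.000735) and fell 9.41-fold from M to RE (−3.23 ± 0.27 SE, adjusted p = 0.000166). The rise was not called without the first (2.35, adjusted p = 0.0105) or the second M library (2.15, adjusted p = 0.0136), while the fall was called under all 19 alternatives. The RE cells were at 0.485 of the E level, which was not called (−0.97, 95% confidence interval −1.60 to −0.35, adjusted p = 0.0313). That difference was called without the first E library (−1.42), and also after removal of the dependence of each library on GC and length (−1.43), an alternative added after the data were seen, and was −0.53 and not called without the second E library. In bulk RNA, a change in the share of cells with a transcript and a change in its amount per cell cannot be told apart. Exons of *Gm29200* overlap those of *Lama3* in a newer annotation.

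*Lamb3*, the beta chain of the same trimer, was at 255 and 290 ppm in the E, 766 and 840 in the M and 427 and 353 in the RE libraries. No groups overlapped. It rose 2.95-fold with TGFβ1 (log2FC 1.56 ± 0.15 SE, adjusted p = 0.000308), a call kept under all 19 alternatives. After withdrawal it fell 2.06-fold (−1.05 ± 0.15 SE, adjusted p = 0.00226). This fall lay close to the fold threshold and was not called with library totals (−0.84) or when any 1 of the M or RE libraries was left out (adjusted p of 0.0186 to 0.0363). The RE cells were at 1.43 times the E level, which was not called (0.51, 95% confidence interval 0.16 to 0.87, adjusted p = 0.0411).

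The likeness of other genes to a member was measured as the Euclidean distance between log2 values centred over the 6 libraries. The genes nearest to 5 of the well covered members were *Flt3l* for *Lama5* (0.143), *Sqstm1* for *Lamb2* (0.0674), *Mtpn* for *Lamb3* (0.233), *Tram2* for *Lamc1* (0.157) and *Dock5* for *Hspg2* (0.109), and to the hardly covered ones *Scoc* for *Lama4* (0.5) and *Zfp300* for *Nid2* (0.313).

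*Lama5*, the alpha chain of the more widespread epithelial laminins, took another course. It was at 1611 and 3024 ppm in the E libraries, 952 and 974 in the M libraries and 1340 and 1269 in the RE libraries. Every E library lay above the RE libraries and every RE library above the M libraries, but the E pair differed 1.88-fold. The M cells were at 0.415 of the E level (log2FC −1.20 ± 0.28 SE, adjusted p = 0.0122), just outside the call. It was called under 6 of 19 alternatives, among them the fits without the first E library (−1.65), with library totals (−1.49), with array weights and with the GC and length trend removed (−1.59). Without the second E library it was −0.74 and not called. The log2 difference of RE was 0.44 from M (95% confidence interval −0.21 to 1.09, adjusted p = 0.27) and −0.76 from E (−1.41 to −0.11, adjusted p = 0.0753), of which the latter was called without the first E library (−1.21) and was −0.31 without the second.

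*Lamb2*, a beta chain that can pair with the *Lama5* product, varied least of the well covered members. Its level was 303 and 407 ppm in the E, 247 and 261 in the M and 326 and 304 in the RE libraries. The M libraries lay below all others, and the E and RE libraries overlapped. The log2 fold change was −0.47 in E vs. M (adjusted p = 0.0567), 0.31 in M vs. RE (adjusted p = 0.2) and −0.16 in E vs. RE (95% confidence interval −0.55 to 0.23), none of them called. The last turned to 0.05 without the second E library.

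*Lamc1*, the gamma chain shared by most laminins and the one nidogens bind, was at 113 and 262 ppm in the E, 438 and 418 in the M and 300 and 293 in the RE libraries. The M libraries were highest and the E libraries lowest, and the E pair differed 2.32-fold. The log2 difference of M from E was 1.31 (standard error 0.34, adjusted p = 0.0189) and was not called. It was 0.70 without the first E library and was called without the second (1.92). The RE cells differed from the E cells by 0.78 (95% confidence interval −0.01 to 1.58, adjusted p = 0.119), a value of 0.18 without the first E library and a call without the second (1.39). From M to RE the log2 difference was −0.53 (adjusted p = 0.277).

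*Lama4* was hardly covered, at 6 and 9 reads' worth in the E, 18 and 7 in the M and 17.0 and 6.5 in the RE libraries. The groups overlapped in all comparisons. The ratio of M to E was 1.64, with an exact 95% counting interval of 0.830 to 3.34, and that of RE to M was 0.869 (0.475 to 1.59), so that no change was detectable at this depth. Its fitted sign turned without the first M library in E vs. M (−0.06) and in M vs. RE (0.31). In M vs. RE the sign turned under 2 of the 18 alternatives that gave a value, so not only without that library.

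**Figure D2:**
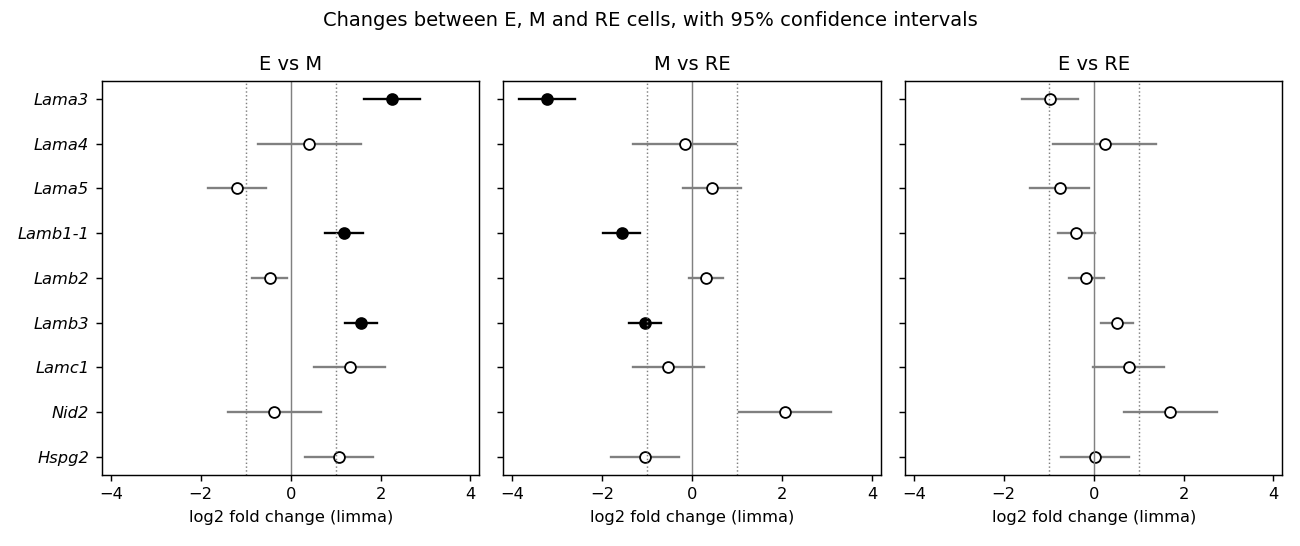
Log2 fold changes (points) with 95% confidence intervals (lines) from limma for the members and for the chain *Lamb1-1* in the 3 comparisons, where a positive value is higher in the second group named. *Lama3*, *Lamb3* and *Lamb1-1* were called in E vs. M and in M vs. RE, and none of these genes in E vs. RE. The *Nid2* points depend on the pseudocount and are no tests.

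Of the linkers, *Hspg2* was abundant and *Nid2* nearly absent. *Hspg2* was at 597 and 1282 ppm in the E, 1803 and 1898 in the M and 851 and 929 in the RE libraries. The M libraries lay above all others, and the RE libraries lay between the E libraries, which differed 2.15-fold. The mean was 1.97-fold higher in M than in E (log2FC 1.08 ± 0.32 SE, adjusted p = 0.0316) and 2.08-fold lower in RE than in M (−1.06 ± 0.32 SE, adjusted p = 0.0424), and neither was called. The first was called without the second E library (1.63) and was 0.53 without the first. The second was called in a fit of the M and RE libraries alone (adjusted p = 7.96e-07), at the same log2FC of −1.06 and an SE of 0.087. That fit leaves out the spread between the E libraries, the widest of the 3 stages. With only the first E library left out, the log2FC was also −1.06. The difference of RE from E was 0.02 (95% confidence interval −0.73 to 0.78), and its sign depended on the E library left out (−0.53 or 0.58).

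*Nid2* had 2.8 and 0 reads' worth in the E libraries, 0 in both M libraries and 19.1 and 11.0 in the RE libraries. The RE libraries lay above all others. Its mean in RE was at least 4.50-fold higher than the floor of 3 reads' worth per library in the M cells. The ratio of RE to E was 8.88, from 30 and 3 reads' worth pooled over the libraries of each stage, which leaves out the spread between libraries. Because the gene passed the filter only through the RE libraries, where it is high, its fitted differences and this ratio are not given as tests. Exons of *Rtraf* overlap those of *Nid2* in a newer annotation, and the treatment of strand and overlaps is not given in the sources used here, so the gene of origin is uncertain.

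In M vs. RE, 2 of the 8 members were called, *Lama3* and *Lamb3*, both lower in the RE cells, and 12.7% of all genes tested were called, 7.92% higher and 4.79% lower. The median log2 fold change of the members was −0.35, beside −0.02 over all genes tested. It includes the fitted value of *Nid2* (2.07), which depends on the pseudocount and is not given as a test. In E vs. RE, limma called 0 members, against 9.08% of all genes tested (5.92% higher and 3.16% lower). Leaving out *Nid2*, 3 of 7 had an unadjusted limma p below 0.05, *Lama3* and *Lama5* with lower and *Lamb3* with higher values in RE, a share close to the 43.6% of all genes tested that had one. *Lama3* and *Lama5* were called lower in RE with the GC and length trend removed or the first E library left out, and neither was without the second E library.

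Per kilobase of transcript the members can be set in order within a stage. The length used was that of the longest coding transcript, 10550 bases for *Lama3*. Were a shorter transcript in use, the level of that gene per kilobase would be higher. The order, shares and ratios below depend on these lengths, and which transcripts were present was not tested. In the E cells *Lama5* had the highest mean level of the members, at 204 ppm per kilobase, and *Lama3* the lowest of the well covered ones, at 11.8. In the M libraries *Lamb3* led the members at 157 and 173 ppm per kilobase, then *Hspg2* at 127 and 134, *Lama5* at 83.6 and 85.5, *Lamc1* at 57.4 and 54.8, *Lama3* at a mean of 53.7 ± 5.27 (SD, n = 2) and *Lamb2* at 44.0 and 46.4. *Lamc1* and *Lama3* overlapped in this order and the others did not, and *Lamb1-1*, not a member, was above them all at 232 and 204. In the RE libraries *Lama5* led the members again, at 118 and 111 ppm per kilobase, above *Lamb3* at 87.7 and 72.4 and *Hspg2* at 60.0 and 65.5. *Hspg2* and *Lamb2* (57.9 and 54.0) came next to each other without overlap, and *Lama3* was at 5.63 and 5.79.

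The make-up of the alpha and beta chains was computed within each library. Of the summed alpha chain level per kilobase, *Lama3* made up 5.49% and 5.46% in the E, 37.4% and 40.2% in the M and 4.56% and 4.94% in the RE libraries, and *Lama5* nearly all of the rest. The E libraries agreed closely in this share although their levels differed. Of the beta chains, *Lamb2* made up 28.6% and 29.8% in the E, 10.2% and 11.0% in the M and 26.6% and 26.8% in the RE libraries, and *Lamb3* 27.8% and 24.5%, 36.4% and 40.8%, and 40.4% and 36.0%.

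**Figure D3:**
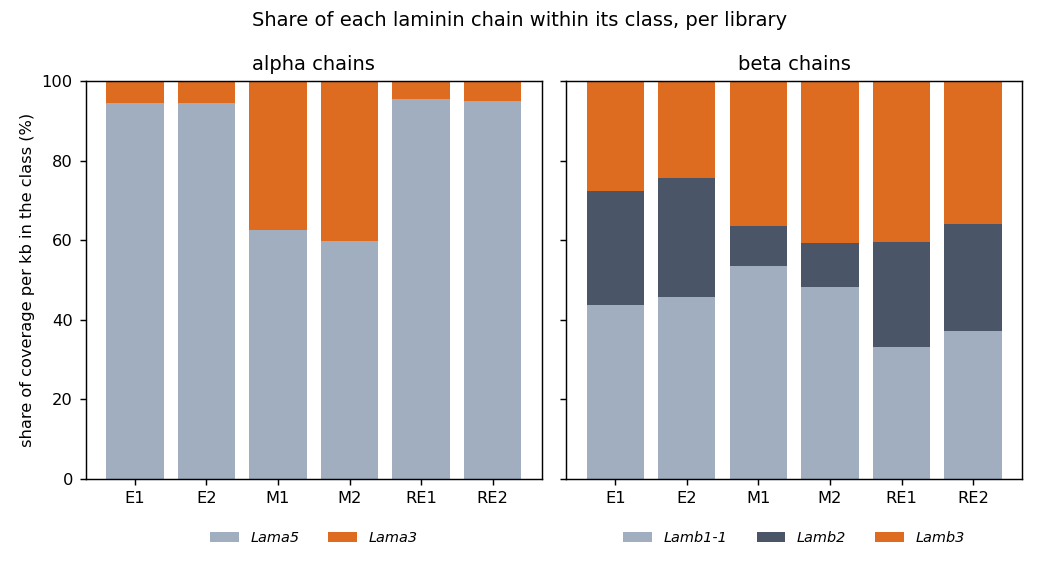
Share of each chain in the summed alpha or beta chain level per kilobase of transcript (percent), by library. *Lama3* made up 37.4% and 40.2% of the alpha chains in the M libraries and at most 5.49% in the others, and *Lamb2* at most 11.0% of the beta chains in the M and at least 26.6% in the other libraries.

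Ratios between chains of 1 library followed. *Lama3* to *Lama5*, per kilobase, was 0.0581 and 0.0577 in the E, 0.598 and 0.672 in the M and 0.0479 and 0.0520 in the RE libraries, so that M lay above all others. *Lamb3* to *Lamb2* was 0.973 and 0.822 in the E, 3.58 and 3.72 in the M and 1.52 and 1.34 in the RE libraries, without overlap. *Lamb3* to *Lamb1-1* was 0.636 and 0.536 in the E, 0.680 and 0.845 in the M and 1.22 and 0.967 in the RE libraries, with RE above all others. *Lama3* to *Lamb3*, the alpha and beta chains that join each other, was 0.157 and 0.258 in the E, 0.318 and 0.333 in the M and 0.0643 and 0.0800 in the RE libraries, without overlap. With 2 libraries against 2, the smallest two-sided p an exact permutation test can give is 0.333, so these ratios are given as values.

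**Figure D4:**
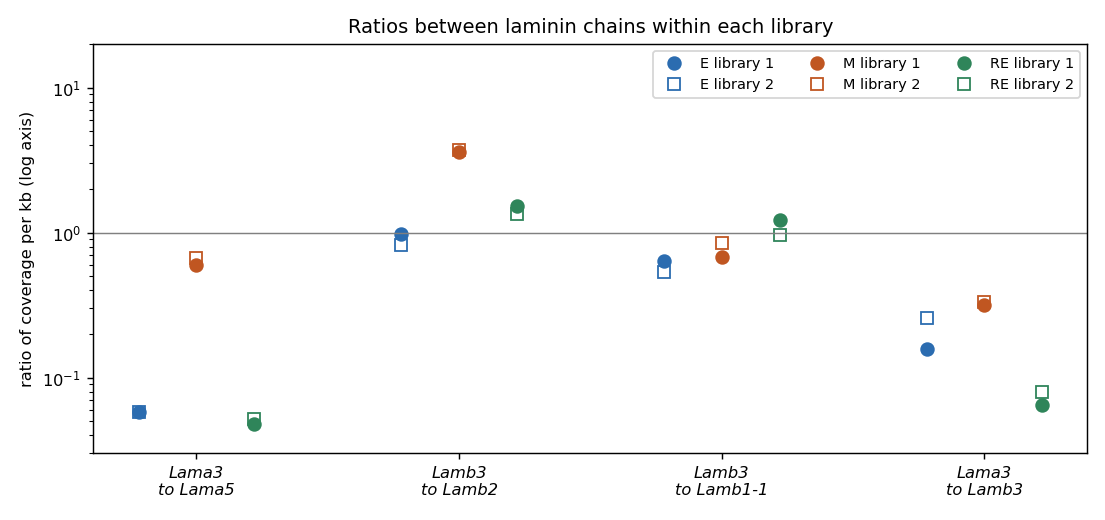
Ratios of chain levels per kilobase of transcript in each library (points, log axis). The ratio of *Lama3* to *Lama5* was 0.598 and 0.672 in the M libraries and at most 0.0581 in the others, and that of *Lama3* to *Lamb3* was lowest in the RE libraries, at 0.0643 and 0.0800.

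The other laminin chains comprised 6 listed genes, of which 4 were tested. *Lamb1-1* (the older symbol of *Lamb1*, the partner of *Lama5* and *Lamc1*) was at 476 and 642 ppm in the E, 1339 and 1182 in the M and 415 and 433 in the RE libraries. It rose in M (log2FC 1.19, adjusted p = 0.00193) and fell in RE (−1.57, adjusted p = 0.00071), but the rise was called under 10 of 19 alternatives only, and the M vs. RE difference, at −1.66 to −1.48 with 1 library left out, was not called without any 1 of the M or RE libraries. *Lamc3* and the laminin-related *Ntn4* were low. *Lamc3* was at 0.720 and 0.978 ppm in E, 0.285 and 0.180 in M and 0.105 and 0.142 in RE. The difference of M from E was not called (−1.52, adjusted p = 0.0119), and that of RE from E was (−2.08, adjusted p = 0.00572). The RE libraries held only 5 and 6.24 reads' worth of *Lamc3*. *Ntn4* was at 1.28 and 1.63 ppm in E, 1.24 and 1.58 in M and 3.78 and 3.49 in RE (1.27 from E to RE, adjusted p = 0.00885). *Lama1* and *Lama2* were not tested for low coverage.

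Around the laminins, the other lists held 61 tested genes, of which 24 were called higher and 8 lower in E vs. M, 10 higher and 22 lower in M vs. RE, and 8 higher and 4 lower in E vs. RE. Their median log2 fold changes were 0.51, −0.53 and 0.09. The genes called were 52.5%, 52.5% and 19.7% of those tested, beside 16.8%, 12.7% and 9.08% of all genes tested. These lists were put together with earlier results of these data known, and the counts are descriptions.

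The collagens of the sheet and its anchors gave 5 higher and 3 lower of 8 tested in E vs. M, and 2 higher and 5 lower in M vs. RE. Over all genes tested, 16.8% and 12.7% were called in these comparisons. *Col7a1*, which forms the fibrils that anchor the hemidesmosomal laminin, averaged 21.0, 163 and 6.28 ppm in E, M and RE (log2FC 2.95, adjusted p = 3.2e-05, then −4.68, adjusted p = 1.48e-05,). The collagen IV chains *Col4a3* (5.46, adjusted p = 8.19e-05) and *Col4a4* (4.71, adjusted p = 9.31e-05) rose in M, while *Col4a5* fell (−1.38, adjusted p = 0.000249). *Col18a1*, the source of endostatin, rose by 1.13 (adjusted p = 0.00057). *Col4a1*, a chain of the most common collagen IV, had only 200 and 301 bases in the E, 100 and 0 in the M and 50 and 100 in the RE libraries and was not tested.

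Of 14 other basement membrane proteins tested, 7 were called higher and 2 lower in M than in E. This was 64.3%, beside 16.8% of all genes tested. *Sparc*, a collagen-binding protein, averaged 233, 1077 and 534 ppm in E, M and RE. It rose by 2.21 (adjusted p = 3.33e-05), fell by 1.01 in M vs. RE (adjusted p = 0.00108) and stayed higher in RE than in E (1.19, adjusted p = 0.00113). *Smoc1* rose by 3.15 (adjusted p = 0.000102) and *Vwa1*, a perlecan-binding protein, by 2.53 (adjusted p = 0.000132). *Fbln1* and *Tinagl1* were lower in M (−4.58, adjusted p = 0.000365, and −2.08, adjusted p = 0.000157,), and the *Fbln1* value depends on the pseudocount because M was near the floor.

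Of 14 laminin receptor and hemidesmosome genes, 4 were higher and 1 lower in M than in E, and 9 were not called. The share called was 35.7%, beside 16.8% of all genes tested. *Itga2*, the alpha chain of a collagen and laminin receptor, averaged 3.34, 198 and 2.92 ppm in E, M and RE (log2FC 6.03, adjusted p = 8.29e-05). *Itgb1*, its beta chain, averaged 817, 2396 and 1094 ppm (1.55, adjusted p = 0.000234). *Sdc1* (1.40, adjusted p = 0.000243) and the laminin-binding integrin chain *Itga7* (1.48, adjusted p = 0.00253) were also higher in M, and *Sdc4* was higher in RE than in M (1.26, adjusted p = 0.000303). The hemidesmosomal integrin chains *Itga6* (0.25, adjusted p = 0.209) and *Itgb4* (0.51, adjusted p = 0.0487), the laminin receptor chain *Itga3* (0.24, adjusted p = 0.461) and dystroglycan, *Dag1* (0.54, adjusted p = 0.0949), were not called in E vs. M.

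Of 10 proteases tested that can cut laminin or its surroundings, 5 were higher and 1 lower in M than in E, and 1 higher and 5 lower in RE than in M. Both are 60%, beside 16.8% and 12.7% of all genes tested. *Mmp9* averaged 1.58, 916 and 1.61 ppm in E, M and RE (log2FC 9.09, adjusted p = 1.32e-05). *Bmp1*, which processes procollagens and laminin chains, averaged 117, 777 and 120 ppm (2.74, adjusted p = 2.54e-05). *Plau* averaged 71.2, 280 and 37.4 ppm (1.98, adjusted p = 0.000136) and *Plat* 4.07, 15.1 and 7.38 ppm (1.86, adjusted p = 0.000409). *Tll1*, a relative of *Bmp1*, averaged 13.2 ppm in M and was at the floor in E. Of 11 genes for the sugar on dystroglycan that laminin binds, 9 were not called in E vs. M. The 2 called, 1 higher and 1 lower, made up 18.2%, near the 16.8% of all genes tested. *C85492*, listed as *Pomgnt2*, was lower in M (−1.35, adjusted p = 0.000786), and all 11 missed the call in the other comparisons.

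**Figure D5:**
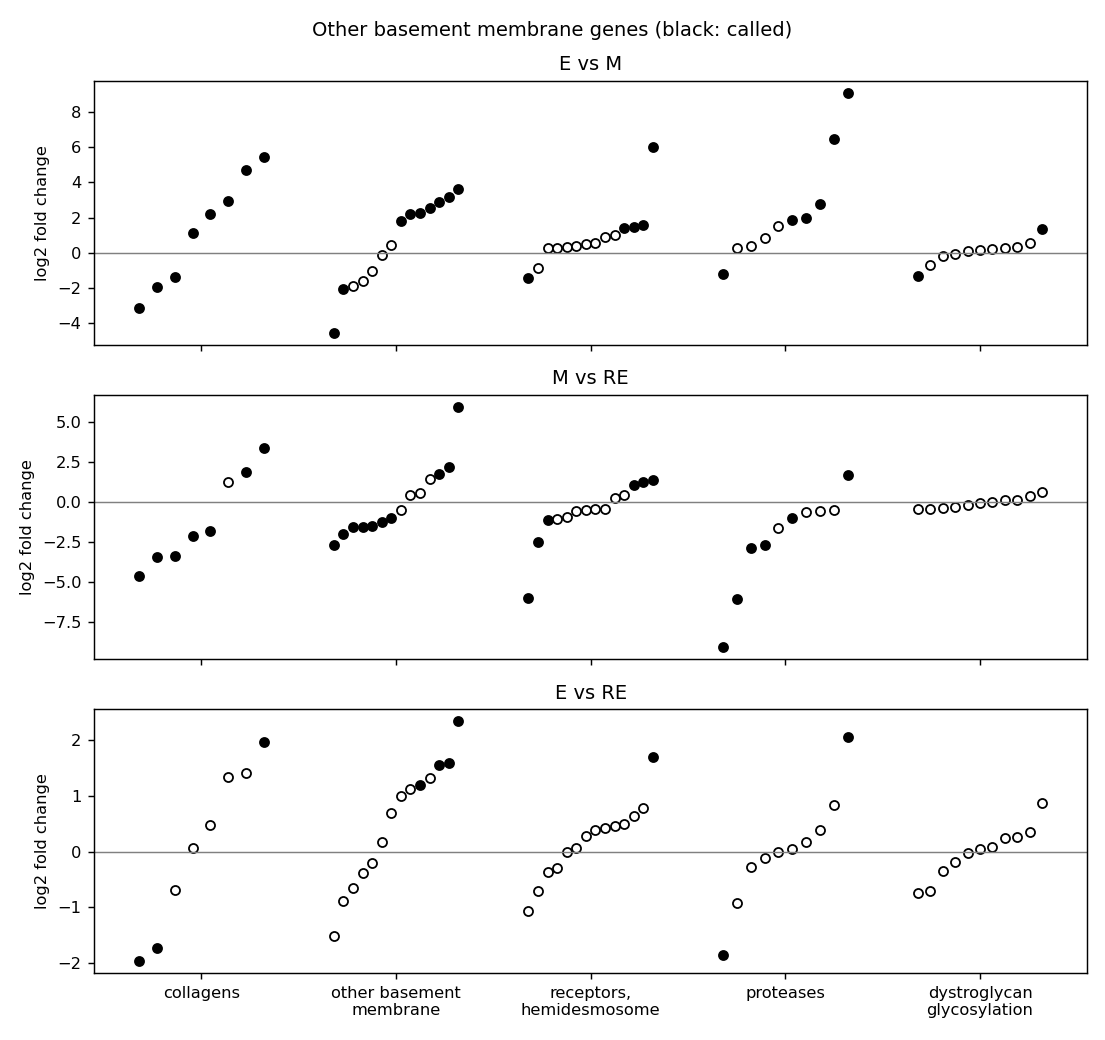
Log2 fold changes of the tested genes of each list other than the laminin chains in the 3 comparisons, where each point is a gene and a positive value is higher in the second group named. In E vs. M the medians were 1.67 for the collagens, 1.70 for the proteases and 0.18 for the dystroglycan glycosylation genes.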

How the data were processed

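RNA of EpH4 cells was sequenced in 6 libraries, 2 each of E, M and RE. Reads were mapped by the authors to NCBI-m37 with Bowtie and TopHat2, and edgeR was named for their differential expression. The deposited coverage (signal) holds bases summed per gene, read from the values: 44.8% to 48.4% of low values were multiples of 50. How reads were summed per gene is not given in the sources used here. No deposited column was left unused.

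Coverage was divided by the library total after TMM scaling (trims of 30% and 5%), in ppm. Genes with 500 bases in at least 2 libraries were tested in all 6 libraries with limma 3.58.1 in R 4.3.3 (log2(ppm + 0.1), trended variance, Benjamini-Hochberg adjustment over all genes). The procedure was run on simulated data with independent noise for each gene. No dependence of a library on transcript length was simulated, so the run does not cover that difference between the E libraries. P-values measure only the spread between these libraries. Counting intervals are exact, treat 50 bases as 1 read and cover counting error only. Lengths and overlaps came from GENCODE vM21, newer than the authors' build, and matched 93.3% of tested genes. Promoters came from RefSeq.

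The members, lists and tests were chosen with earlier results of these data known. Named were all members, all other laminin chains, up to 5 called genes of each other list by smallest adjusted p, and the gene nearest to each member in centred log2 profile. The receptor genes *Itga3*, *Itga6*, *Itgb4* and *Dag1* and the collagen gene *Col4a1* were named after their values were seen. Replicate numbers give no stated pairing. *Nid1* was not analysed here, and some genes that the rule named are not reported here.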

Additional observations from a re-analysis of the deposited data

How the results depend on the processing

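The count of members called in E vs. M was 2 and became 5 at an adjusted p of 0.05, 5 with array weights and 1 to 4 with 1 library left out. In M vs. RE it was 2 and became 4 at an adjusted p of 0.05, 1 with library totals, 4 with only the groups compared, 4 with array weights and 1 to 4 with 1 library left out. In E vs. RE it was 0 and became 1 at an adjusted p of 0.05, 2 with the GC and length trend removed and 0 to 2 with 1 library left out. Of the other lists, 12 genes called in E vs. RE became 5 with only the groups compared and 0 to 19 with 1 library left out, and the left-out ranges were 24 to 34 in E vs. M and 17 to 36 in M vs. RE. Signs turned for *Hspg2* in E vs. RE with library totals (−0.060), with the GC and length trend removed (−0.29) and over the left-out libraries (−0.53 to 0.58), and for *Lamb2* in E vs. RE over the left-out libraries (−0.37 to 0.054). For *Lama4* they turned in E vs. RE with the trend removed (−0.13), and over the left-out libraries in E vs. M (−0.065 to 0.90), M vs. RE (−0.65 to 0.31) and E vs. RE (−0.20 to 0.69). The causes were not tested. The share of all genes called was given only for the main fit and its cutoffs. Whether the counts under the alternatives moved more than that share was therefore not tested, and they do not set the members apart. Every count above 2 in M vs. RE, and the 1 in E vs. RE at an adjusted p of 0.05, includes *Nid2*, which passed the filter only through the RE libraries. *Lama4* and *Nid2* gave no value when the filter asked for coverage in every library.

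Same-numbered libraries of different stages deviated together with correlations of 0.27 (E and M), 0.06 (E and RE) and 0.12 (M and RE), and with 2 numbers only these do not establish a pairing. With the replicate number as a block, 2, 3 and 0 members were called in E vs. M, M vs. RE and E vs. RE, respectively, with *Nid2* as the addition, and with the block and the trend removed 2 members were called in E vs. RE, with the same sign changes of *Hspg2* (−0.29) and *Lama4* (−0.13).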

Other observations

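Summed per kilobase, the alpha and beta laminin chains differed in how far their total moved. The alpha chains totalled 150 and 281 ppm per kilobase in the E, 134 and 143 in the M and 123 and 117 in the RE libraries, so that the E libraries were farther apart than M and RE. The beta chains totalled 189 and 243 in the E, 433 and 423 in the M and 217 and 201 in the RE libraries. For the beta chains the M libraries lay above all others and the E and RE libraries overlapped. These sums were chosen after the values were seen and were not tested.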
